A study of Mus musculus with 8 samples.

Results

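After 30 min of serum, the mean measured signal of 433 array probes for noncoding or unannotated transcripts lay at least 2-fold below that in starved NIH3T3 cells. With serum, 125 of the 433 were well above background on no array, so that their drops are only bounds. With another background correction, 44 of the 433 kept a drop of this size. That correction adds a constant to every signal, which shrinks the log2 differences of dim probes. NIH3T3 is an immortalised line of mouse embryonic fibroblasts. The probes were chosen by measured values. A probe was taken where its transcript name was not a RefSeq mRNA, a RefSeq noncoding RNA or an AK cDNA, where it was well above background on both arrays without serum, and where its mean with serum lay at least 1 log2 unit below its mean without serum. A level here is log2 of the processed signal less the array's own 75th percentile, and a log2 difference of 1 is a factor of 2. Of 55681 probes on the array, 10414 had such a name and were well above background on both arrays without serum, and 433 of these (4.16%) passed the last condition. The drop with serum therefore defines these probes and is given here as a description, with no test.

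Long intergenic noncoding RNAs (lincRNAs) are transcripts from between protein-coding genes, spliced or not, that carry no long reading frame. Many are made at low levels and some are precursors of microRNAs or start beside the promoter of a coding gene. Serum added to starved fibroblasts sets off a wave of immediate early genes such as Fos within minutes. Cordycepin, or 3′-deoxyadenosine, is a chain-terminating analogue of adenosine that lacks its 3′ hydroxyl and is known for its effect on polyadenylation.

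Per the labels, male NIH3T3 cells grown in 10% newborn bovine serum were kept in 0.5% serum for 24 h. They then received 0.1% DMSO or 20 µM cordycepin in DMSO, and 60 min later serum was added for 30 min or left out. The study's figure legend instead places the 30 min of serum after the whole stated time with cordycepin or DMSO. There were 2 arrays of starved cells without serum, 3 of cells given DMSO and serum, and 3 of cells given cordycepin and serum. No array held cells given cordycepin without serum. The labels do not say that the arrays of a group came from separate cultures, so the spread between them may be technical. These are bulk samples, in which fewer cells of a kind and less RNA per cell cannot be told apart.

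The 75th percentile of the signal ranged from 350 to 802 between arrays, 51.9 to 57.7% of spots were well above background on each, and no spot was saturated. The second serum array had the lowest share of spots above background. All 7 serum response genes that served as a check (Fos, Fosb, Junb, Atf3, Arc, Zfp36 and Ier2) were called higher with serum, by 2.66 to 7.91 on the log2 scale. All 7 fibroblast markers (Col1a1, Col1a2, Col3a1, Fn1, Vim, Pdgfrb and Thy1) were tested and limma called none changed by serum or cordycepin, and 0 of them passed an unadjusted p under 0.05 in either comparison. Of the markers of other cells, Ptprc was well above background on 3 arrays, Epcam and Alb on 1 each, and the endothelial marker Pecam1 on all 8, at a mean of −2.40 without serum.

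Most of the probes, 350 of 433, were designed to lincRNAs. A further 30 were for Ensembl transcripts, 15 for assembled sequences, 13 for predicted noncoding RNAs, 9 had no transcript name, 8 were for predicted mRNAs and 8 for other cDNAs or expressed sequence tags. The name noncoding did not cover all of them. Of 18 probes whose gene was found in the RefSeq table, 8 belonged to protein-coding genes, among them Birc3, Tma16, Cenpp, Det1, Mrpl20 and Acyp1. Positions are those of the files, on mouse build mm9, and whether a probe lies in an exon or an intron was not analysed here.

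The sequences of the probes on which the results below turn are shown first. Each is the 60-base probe sequence of the array, 5′ to 3′, on the strand of the transcript. The first set shows probes from places that stayed low when cordycepin was given. The first lay between Hprt and Plac1 on chromosome X (chrX:50406515-50406574, reverse strand), the next between Tns1 and Rufy4 (chr1:74103774-74103833, reverse strand) and the last between Fbxo10 and Tomm5 (chr4:45096438-45096497, reverse strand).
A_30_P01021240: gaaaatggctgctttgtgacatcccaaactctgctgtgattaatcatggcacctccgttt
A_30_P01030180: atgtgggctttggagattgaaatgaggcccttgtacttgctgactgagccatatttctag
A_30_P01031078: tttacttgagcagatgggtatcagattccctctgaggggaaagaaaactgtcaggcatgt

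The second set shows probes from places that were higher with cordycepin than without serum. They came from the reverse strand between Lpar6 and Itm2b (chr14:73746428-73746487), from the forward strand beyond Meis2 (chr2:115900836-115900895) and from the transcript 4930432F04Rik (chr5:139845249-139845308, reverse strand), which was close to its level without serum. Capitals mark AATAAA, the hexamer that serves as a polyadenylation signal.
A_30_P01018036: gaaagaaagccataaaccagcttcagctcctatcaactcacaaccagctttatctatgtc
A_30_P01031324: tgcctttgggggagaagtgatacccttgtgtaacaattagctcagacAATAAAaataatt
A_55_P2376363: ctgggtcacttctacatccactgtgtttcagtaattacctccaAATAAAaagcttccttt

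AATAAA was in 30 of the 433 probes on the transcript strand (6.93%) and in 16 on the other strand (3.70%). Among the 9981 measured probes of the same classes that did not pass the rule, the shares were 6.86% and 2.90%, and among 17437 measured RefSeq mRNA probes 14.3% and 4.30%. The pentamer ATTTA, which can overlap AATAAA by 1 base or more, was in 9.70% of the 433 on either strand, against 5.79 and 7.51% of the other probes of the same classes. The median GC content was 43.3%, against 45.0% in those other probes. These are descriptions of letters in the probes, and no motif was searched outside them. AATAAA was not counted by the direction of change with cordycepin, and the few probes shown above are no basis for such a comparison.

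The next set shows 3 probes on the reverse strand beside Zfp553, a zinc finger gene, which overlapped its RefSeq promoter (the 250 bases before to 50 after the start, build GRCm38.p6, forward strand). The promoter is chr7:127232811-127233110 of that build. On mm9 the probes lie at chr7:134376298-134376357, chr7:134376313-134376372 and chr7:134376373-134376432. Capitals mark the bases shared between each probe and the promoter, the probe being antisense to the gene.
A_30_P01023264: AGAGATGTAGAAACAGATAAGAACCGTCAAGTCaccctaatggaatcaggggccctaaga
A_30_P01025871: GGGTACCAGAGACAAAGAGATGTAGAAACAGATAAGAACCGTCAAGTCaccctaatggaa
A_30_P01031962: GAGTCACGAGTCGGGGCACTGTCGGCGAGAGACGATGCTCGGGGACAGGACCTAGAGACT
Zfp553 promoter: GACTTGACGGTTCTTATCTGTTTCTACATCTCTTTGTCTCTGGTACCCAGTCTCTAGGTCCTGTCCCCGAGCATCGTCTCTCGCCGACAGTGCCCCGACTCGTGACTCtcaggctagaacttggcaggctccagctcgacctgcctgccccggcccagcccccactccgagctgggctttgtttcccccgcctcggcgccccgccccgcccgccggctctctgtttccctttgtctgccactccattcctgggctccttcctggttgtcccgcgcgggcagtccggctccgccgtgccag

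The probes covered the first 108 bases of this promoter. An exact match of at least 30 bases to one of 32851 RefSeq promoters was found for 8 of the 433 probes (1.85%), and for 255 of the 10414 measured probes of the same classes (2.45%). The other matches were a pair of probes in the promoter of Gm52006 on its own strand, and 1 probe each for Gm14636, Dynlt1f and 4933433H22Rik.

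The last sequence is that of a forward-strand lincRNA probe (chr15:85537092-85537151) whose first bases are the end of the Mirlet7c-2 hairpin, a precursor of the let-7 microRNAs, which repress growth genes. Capitals in the probe mark the 36 shared bases. Bases 3 to 24 are the mature mmu-let-7c-2-3p, also given, with its seed (bases 2 to 8) in capitals. The same mature sequence belongs to Mirlet7a-1 on chromosome 13.
A_30_P01033484: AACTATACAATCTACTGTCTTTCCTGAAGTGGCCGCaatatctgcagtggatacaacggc
mmu-let-7c-2-3p: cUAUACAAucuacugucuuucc

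Over the 433 probes, the median level was −3.70 and −3.69 on the 2 arrays without serum. It was −5.04, −5.32 and −4.96 with serum, and −3.98, −4.00 and −3.81 with cordycepin and serum. The 9981 other measured probes of the same classes were brighter and moved little, with medians from −2.43 to −2.06 on the 8 arrays. The median difference of serum minus no serum was −1.37 over the members and −0.02 over all 30819 probes tested. Drops were mostly small, with 259 members between −1 and −1.5, 108 between −1.5 and −2, 58 between −2 and −3, and 8 below −3, of which 4 were well above background with serum on none of the arrays.

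**Figure D1:**
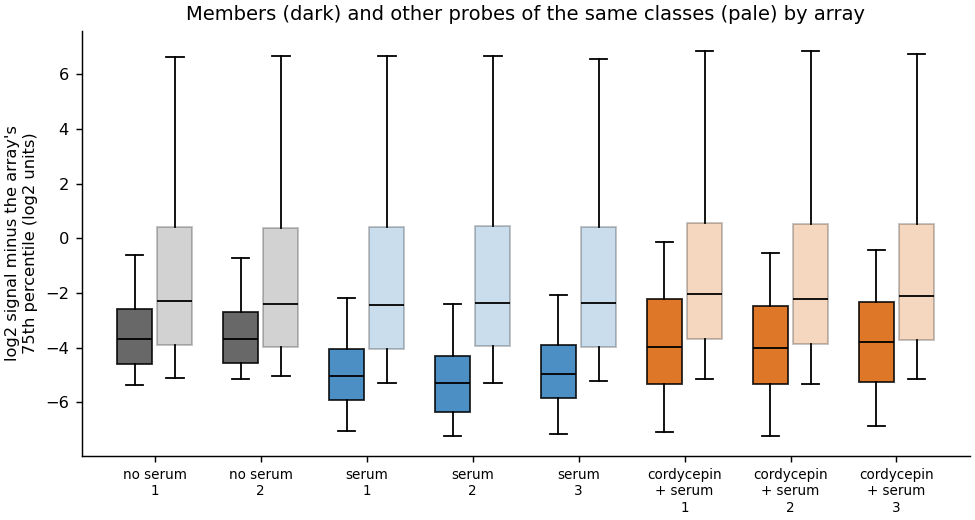
Level of the 433 members (dark boxes) and of other measured probes of the same classes (pale boxes) on each of the 8 arrays, as log2 signal minus the 75th percentile of the array. Boxes span the quartiles with the median as a line and whiskers reach the 5th and 95th percentiles; the members' medians fall from about −3.7 without serum to between −5.32 and −4.96 with serum and lie between −4.00 and −3.81 with cordycepin and serum.

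The members were dim. When the 10414 probes were split into 4 groups of equal size by their level without serum, members made up 6.87% of the dimmest group, then 6.30 and 3.07%, and 0.384% of the brightest. With serum, 158 members were well above background on all 3 arrays, 93 on 2 arrays, 57 on 1 and 125 on none. For these 125 the level with serum is only a bound. On each array the bound used the dimmest signal that any probe well above background had, or that of the member itself where it was higher. The largest of the bounds were at least 5.01-fold and at least 4.23-fold lower, both for reverse-strand probes between Lpar6 and Itm2b, while 31 of the 125 were at least 2-fold lower.

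The classes differed in how often the same condition was met. A drop of at least 1 was seen for 350 of 6344 measured lincRNA probes (5.52%) and for 69 of 17437 RefSeq mRNA probes (0.396%). It was also seen for 96 of 1086 AK cDNA probes (8.84%) and 14 of 592 RefSeq noncoding probes (2.36%), which the rule left out. Rises of at least 1 were found for 1.45% of lincRNA and 0.826% of RefSeq mRNA probes. These shares were not adjusted for level, and mRNA probes are brighter.

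How far the drop rests on each array without serum was examined next. Against the first array alone, 379 of 433 members lay at or below −1, with a median of −1.47 and a highest value of 0.45. Against the second array alone, 356 did, with a median of −1.35 and a highest value of −0.42. There were 302 members at or below −1 against both, 77 against the first only and 54 against the second only. Thus 131 of the 433 rested on 1 array for their place on the list. The first array exceeded the second by 0.03 ± 0.70 on average over the members (SD, from −3.15 to 1.63), while the SD over all probes tested was 0.39.

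**Figure D2:**
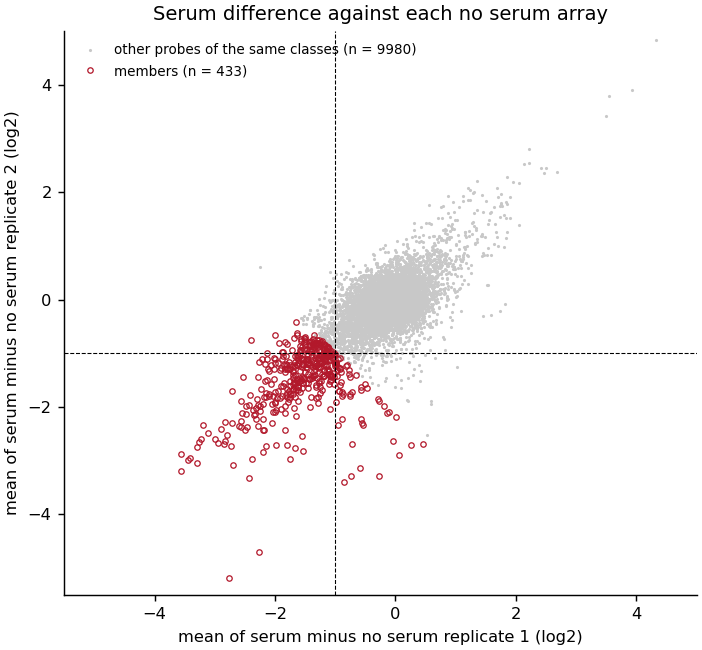
Mean of the 3 serum arrays minus no serum replicate 1 (x axis) and minus no serum replicate 2 (y axis), both log2, for the 433 members (red circles) and the other measured probes of the same classes (grey points). Dashed lines mark −1; 302 members lie at or below both lines, and some members lie below the horizontal line with a value near 0 on the x axis.

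Choosing probes with 1 array and reading them on the other gave smaller values. For this choice a probe had to be well above background on the choosing array only, whereas the rule asked for both. The first array alone chose 830 probes, and on the second array their median was −0.84, with 359 at or below −1 and 725 below 0. The second array alone chose 865 probes, and on the first their median was −0.44, with 311 at or below −1 and 524 below 0. Both readings use the same 3 serum arrays.

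The 5 members with the largest gap between the arrays without serum were all high on the second array only. The probe A_55_P1981000, which has no transcript name, was at −5.05 on the first array and −1.90 on the second, and at −4.84, −4.25 and −4.71 with serum. A_55_P2042808 was at −5.27 and −2.31 without serum and at −5.10, −4.96 and −5.58 with it. A_30_P01031884 was at −4.99 and −2.02, against −5.04, −4.55 and −4.63. For these 3 probes the first array lay within or below the range of the serum arrays. The others were A_30_P01026081, at −4.94 and −1.92, and A_55_P2114656, at −4.45 and −1.84.

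Position on the array moved with this gap. Of the 31 members more than 1 higher on the second array than on the first, 30 lay in the first 3 eighths of the array's rows and none in the last 4, whereas 38.0% of all measured probes lay in those first 3 eighths. Of the 12 members more than 1 higher on the first array, 5 lay there. Among probes of every class, 721 were lower with serum by at least 1 against the second array and by less than 0.3 against the first, and 43.8% of them lay in the first eighth of the rows. The reverse held for 276 probes, with 29.7% in the last eighth. The members as a whole were spread more evenly, with 10.2 to 14.3% in each eighth. The part of array position in the drop was not tested. Of the 250 members outside the first 3 eighths, 188 were at or below −1 against each array alone, and of the 183 inside them 114 were.

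**Figure D3:**
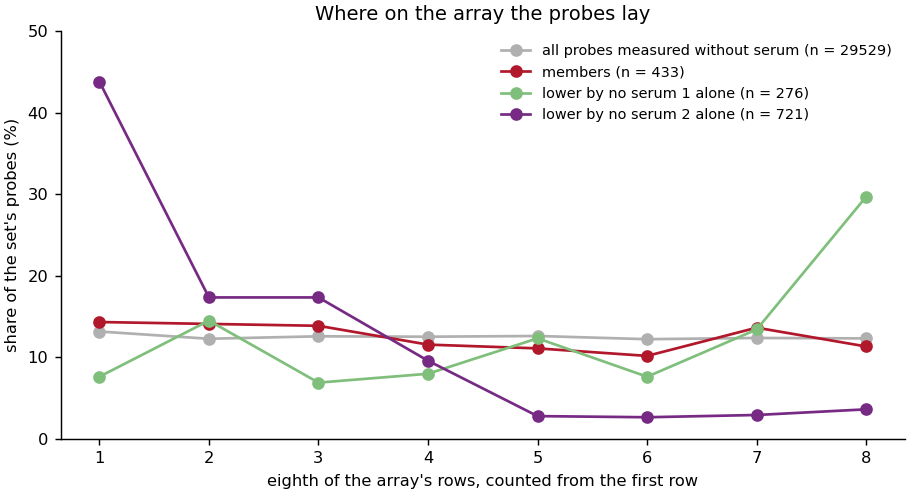
Share of each set of probes (y axis, percent) in each eighth of the array's rows (x axis), for all probes measured without serum (grey), the members (red), and probes of every class that were lower with serum by no serum replicate 1 alone (green) or replicate 2 alone (purple). The purple line starts at 43.8% in the first eighth and stays under 4% in the last 4, while the members stay between 10.2 and 14.3%.

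The number of probes that passed the rule fell most with another background correction. When normexp correction (offset 50) replaced the scanner's processed signal, 44 probes passed the rule, all of them members. The offset adds 50 to every signal and so shrinks the log2 differences of dim probes. The count therefore cannot tell which drops of dim members hold. They were the brighter ones, with a median of −0.92 without serum against −3.88 for the others, and 43 of the 44 were at or below −1 against each array alone. Under normexp 412 of the 433 kept a negative difference, with a median of −0.32.

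Of the 433 members, 190 were called lower with serum by limma (adjusted p under 0.05 and a drop of at least 1), against 0.879% of all probes tested. Calls of a rise were made for 0.847% of all probes. Both arrays without serum lay above all 3 serum arrays for 410 members, against 13.7% of all probes tested. The rule used this contrast, so nothing is read from these counts. At the edge of the rule, the 5 members nearest to it equalled −1 to 2 decimals, and the 5 probes just outside lay between −1 and −0.996. The latter included a predicted mRNA of the zinc finger gene Zfp790, at −3.02 and −2.96 without serum and −3.92, −3.90 and −4.14 with it.

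Cordycepin was then set beside both other groups. The comparison with serum alone shares the serum arrays with the rule, and the comparison with no serum shares the arrays without serum, so an array that helped to choose a member also moves these values. Both are given side by side and support nothing about the drop. Against serum, 204 members (47.1%) were called higher with cordycepin and 21 (4.85%) lower, where 7.63 and 2.87% of all probes tested were called, and 8.04 and 3.01% of the other measured probes of the same classes. Against no serum, 95 (21.9%) were called higher and 124 (28.6%) lower, where 6.48 and 2.99% of all probes were, and 6.80 and 3.24% of the same classes. The median difference of the members was 1.00 against serum (range −2.42 to 5.79) and −0.37 against no serum (range −5.63 to 3.70), and the medians of all probes tested were 0.10 and 0.08.

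The members thus did not move as one with cordycepin. With cordycepin, 110 members lay at least 1 above their level without serum, 167 within 1 of it and 156 at least 1 below it. Of the 433, 276 were well above background on all 3 cordycepin arrays, 37 on 2, 38 on 1 and 82 on none. For these 82 the level with cordycepin is only a bound, so that the size of a fall is not known. All 95 members called higher than without serum were also called higher than with serum. This follows in large part from the rule, since the serum mean of every member lay at least 1 below its mean without serum. A further 108 were called higher than with serum and not called against no serum, 102 were called lower than without serum and not called against serum, and 106 were called in neither. All 3 cordycepin arrays lay above all serum arrays for 240 members (55.4%) and below them for 45 (10.4%), against 26.5 and 13.4% of all probes tested. They lay above both arrays without serum for 143 members and below both for 184, against 29.3 and 16.1%.

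Members within 100 kb of each other were joined into places to see which lay together. The 430 with a position fell into 236 places, of which 158 held 1 member. The other 78 places held 272 members (63.3%), up to 11 in a place, and in 64 of the 78 all members were on 1 strand. The array carries several probes for many loci, and the same joining of all 10207 positioned probes of these classes measured without serum put 81.0% of them in shared places, so nothing about clustering is read from the members' share. The strand count has no such comparison, and nothing is read from it either. Probes at a place can report the same transcript, and 14 neighbouring pairs overlapped, so they are not independent. In 31 of these 78 places every member was above its level without serum when cordycepin was given, in 37 every member was below it, and 10 held both. No such count was made for places of the other probes, so nothing is read from these numbers either.

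The place between Hprt and Plac1 on chromosome X held the member with the largest drop among the 139 well above background on all 8 arrays. There were 7 members between chrX:50406403 and chrX:50410205, 5 on the reverse strand and 2 on the forward strand. A_30_P01021240, whose sequence stands first above, was at 1.71 and 1.03 without serum, −2.03, −2.64 and −0.87 with serum, and −4.67, −4.66 and −3.46 with cordycepin and serum. The 3 groups did not overlap. It was 9.30-fold lower with serum than without, and with cordycepin it lay 2.42 ± 0.50 (SE) below serum on the log2 scale. A_30_P01032068, the brightest of all members, was at 2.18 and 1.82, then −0.72, −0.62 and 0.43, then −1.24, −1.46 and −0.10, and the last 2 groups overlapped. Of the 7 members, 4 were called lower with cordycepin than with serum, and all 7 lower than without serum. Another 3 measured probes of the same classes in this span lay between −0.18 and −0.05. In the RefSeq gene table of build GRCm38.p6 the interval between these flanking genes holds the microRNA genes Mir450b, Mir450-1, Mir450-2, Mir542, Mir351, Mir503 and Mir322. It also holds the noncoding RNA genes C430049B03Rik and Gm35988.

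A place between Nr5a2 and Ptprc on chromosome 1 held 9 members, all on the forward strand, between chr1:139796042 and chr1:139848154. Their serum differences ran from −2.66 to −1.14, with 2 of the 9 well above background on no serum array, and they lay 1.17 to 3.1 below no serum with cordycepin, and 7 of the 9 were called lower in the latter comparison. The brightest, A_30_P01026572 (chr1:139822804-139822863), was at −0.63 and −1.45 without serum, −2.68, −3.24 and −2.29 with serum, and −3.98, −3.83 and −3.17 with cordycepin and serum. The nearest mRNA probe of Nr5a2 lay 1054271 bases from the place. Between these genes the RefSeq table lists 11 genes, among them 4 noncoding RNA genes and Mir181a-1 and Mir181b-1, microRNAs known from lymphocytes. A neighbouring member, A_30_P01033082, lacked a value on the first serum array.

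Other places stayed low as well. Between Tns1, a focal adhesion protein gene, and Rufy4, all 3 members were called lower with cordycepin than without serum. A_30_P01030180 was at −1.32 and −1.63 without serum, −4.10, −4.11 and −3.46 with serum, and −4.75, −4.42 and −4.68 with cordycepin, with no overlap between the groups. A_30_P01031300 gave −1.81 and −2.17, then −4.16, −3.98 and −3.83, then −4.0, −4.46 and −4.24, so that its serum and cordycepin arrays overlapped. Between Fbxo10 and Tomm5 on chromosome 4, 4 neighbouring reverse-strand members fell by 1.90 to 2.44. A_30_P01031078 was at −1.40 and −1.33 without serum, −2.93, −3.77 and −3.59 with serum, and −4.04, −3.47 and −3.54 with cordycepin and serum. A_30_P01025981 gave −1.20 and −1.30, then −2.78, −3.42 and −3.56, then −3.98, −3.52 and −3.88. Serum and cordycepin arrays overlapped for both probes, and all lay below the arrays without serum. The let-7 probe fell by 1.15 with serum and lay 1.52 ± 0.21 (SE) below serum with cordycepin. It was at −1.78 and −1.96, then −3.45, −2.71 and −2.91, then −4.85, −4.36 and −4.44. A second member of that locus, A_30_P01031474, was at 1.41 and 0.89, then 0.18, −0.05 and 0.29, then −1.15, −1.23 and −1.30.

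A different pattern was seen at the place beside Zfp553. Its 9 members, all on the reverse strand between chr7:134372761 and chr7:134376432, fell by 1.26 to 1.78 with serum and lay 1.20 to 1.65 above no serum with cordycepin. All 9 were called higher with cordycepin in both comparisons. A_30_P01023532 was at −0.61 and −0.55 without serum, −2.48, −2.11 and −2.49 with serum, and 1.14, 0.84 and 0.92 with cordycepin and serum. A_30_P01031962, which lies wholly in the promoter, was at −2.18 and −2.28, then −3.68, −3.97 and −3.54, then −0.70, −0.61 and −0.73. The 3 groups did not overlap for either probe. The mRNA probe for Zfp553 itself moved by −0.38 with serum and was called lower with cordycepin than with serum (−1.06). On the other side, the Sept1 probes A_55_P1963764 and A_55_P2178127 moved by −0.18 and 0.12 with serum. Both were called higher with cordycepin than with serum (1.32 and 1.18). The RefSeq table lists the noncoding RNA Gm4532 between Sept1 (Septin1 there) and Zfp553.

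The reverse-strand place between Lpar6 and Itm2b on chromosome 14 held 7 members, between chr14:73746363 and chr14:73749080. The 4 that were well above background on at least 1 serum array had serum differences of −2.32 to −1.94, and with cordycepin lay 3.77 to 4.38 above serum. For the other 3 the level with serum is a bound, and they were at least 5.01-, 4.23- and 3.28-fold lower with serum than without. A_30_P01018036 was at −1.78 and −2.20 without serum, −3.63, −4.11 and −4.07 with serum, and −0.05, −0.01 and 0.07 with cordycepin and serum. A_30_P01031812 gave −1.94 and −2.03, then −3.75, −4.80 and −4.20, then 0.09, −0.34 and −0.22. The first of these bounds, that of A_30_P01032149, rests more on one array, since it was at −4.31 on the first and −1.88 on the second array without serum. Itm2b encodes an integral membrane protein, and Lpar6 a receptor for lysophosphatidic acid, a lipid of serum.

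**Figure D4:**
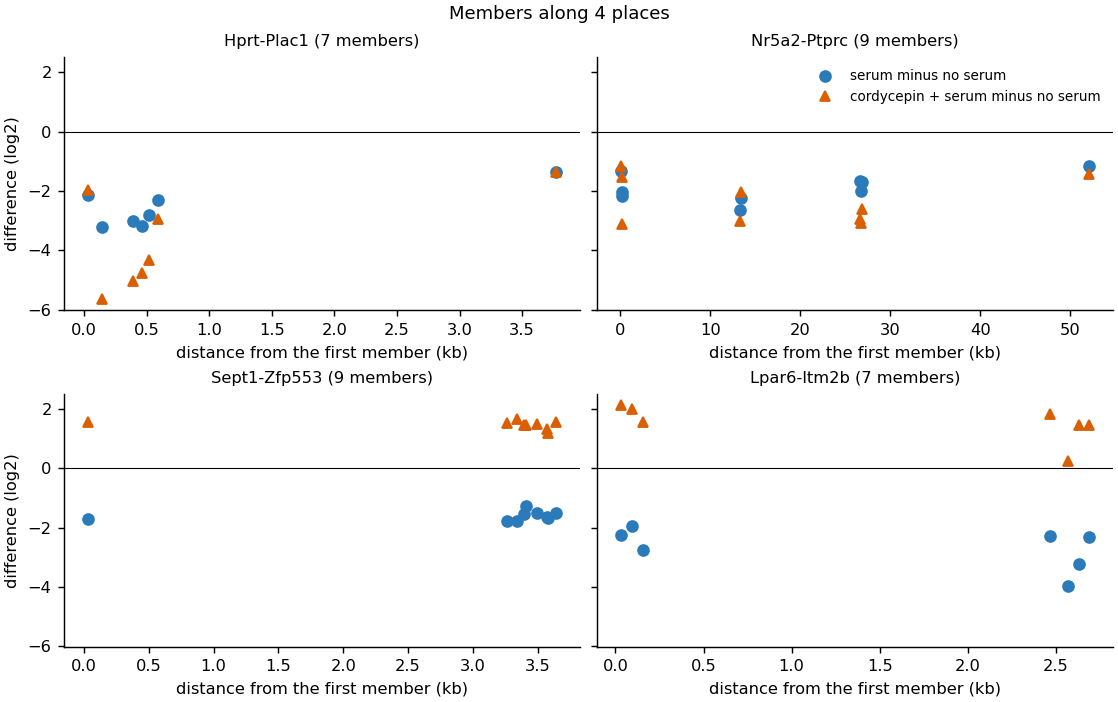
Difference from no serum (y axis, log2) of the members at 4 places, against the distance from the first member of the place (x axis, kb), for serum (blue circles) and for cordycepin plus serum (orange triangles). Triangles reach −5.63 at Hprt-Plac1, where circles reach −3.22, lie on either side of the circles at Nr5a2-Ptprc, and are all above 0 at Sept1-Zfp553 and Lpar6-Itm2b.

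The largest called rises with cordycepin were at a place beyond Meis2 on chromosome 2, where all 3 forward-strand members were called higher than with serum. The third, A_30_P01029084, was well above background on no serum array, and with cordycepin it was at least 20.1-fold higher. A_30_P01031324, which lay 5.79 ± 0.51 (SE) above serum, was at −1.26 and −1.65 without serum, −4.08, −6.22 and −4.19 with serum, and 0.88, 1.08 and 0.93 with cordycepin and serum. A_30_P01031970 was at −1.38 and −2.01, then −4.62, −5.01 and −4.32, then 0.57, 0.96 and 0.82. Both probes were well above background on only 2 serum arrays. A_30_P01024286 on chromosome 15, between Cerk and Tbc1d22a, rose by 5.09 ± 0.44 (SE). A_30_P01033259 on chromosome 6, beyond Gadd45a, a gene induced by DNA damage, rose by 5.02 and was well above background on 1 serum array. The largest called drops with cordycepin outside the chromosome X place were those of ENSMUST00000026302, A_30_P01028192 on chromosome 7 and A_30_P01022073 on chromosome 6. ENSMUST00000026302 lacked a value on 3 arrays, and its call rests on 1 serum array, at −2.68, and 2 cordycepin arrays, at −5.01 and −4.42. A_30_P01022073 was at −3.41, −3.49 and −3.36 with serum and at −5.03, −5.51 and −5.44 with cordycepin, where it was not above background on any array.

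Between Lnx1 and Gsx2 on chromosome 5, 7 members lay within 347 bases, 5 on the reverse and 2 on the forward strand, and all were called higher with cordycepin than with serum. The brightest, A_30_P01020714, was at 0.61 and 0.19 without serum, −0.93, −1.24 and −0.92 with serum, and 1.73, 1.39 and 1.40 with cordycepin and serum. The RefSeq table lists the protein-coding gene Chic2 and 6 noncoding RNA genes between Lnx1 and Gsx2. The place with the most members, 11, lay beyond Pde7a on chromosome 3 and was mixed. For 6 of its members the level with serum is only a bound, and the other 5 had serum differences of −1.85 to −1.12. Of the 11, 3 were called higher with cordycepin than with serum, and 5 were called lower with cordycepin than without serum. Only 2 of the 11, A_30_P01027234 and A_30_P01032983, were well above background on all 3 serum arrays.

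**Figure D5:**
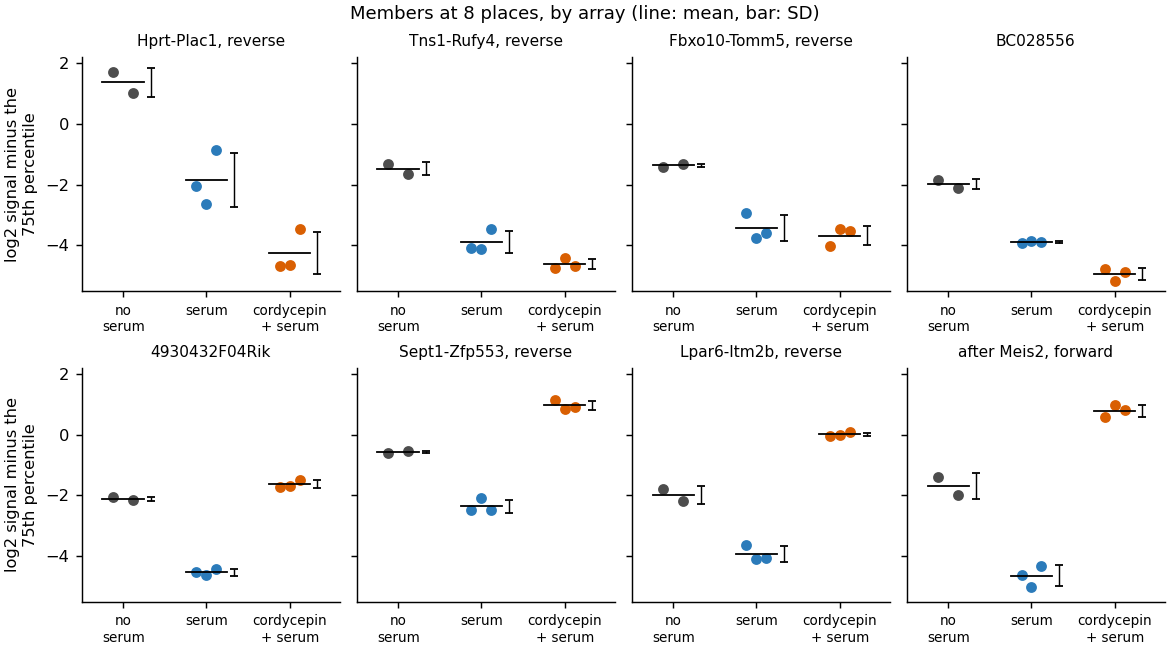
Level of 8 members on each array (points), as log2 signal minus the 75th percentile of the array, without serum, with serum, and with cordycepin and serum, with the mean as a line and the SD as a bar (n = 2, 3 and 3). In the upper row cordycepin arrays lie below the serum arrays or, for Fbxo10-Tomm5, overlap them, and in the lower row all lie above them.

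Among the 27 members with a gene symbol of their own, 4930432F04Rik had the most even values. It was at −2.07 and −2.16 without serum, −4.55, −4.65 and −4.42 with serum, and −1.73, −1.70 and −1.49 with cordycepin and serum. It was 5.36-fold lower with serum than without, and no groups overlapped. BC028556 moved the other way with cordycepin, from −1.86 and −2.10 without serum to −3.91, −3.87 and −3.90 with serum and −4.78, −5.16 and −4.87 with cordycepin and serum. AA536887 was at 0.55 and −0.08, then −1.5, −2.14 and −1.09, then −1.96, −1.92 and −1.51. AI448005, which lies between Hoxd4 and Hoxd3 and was among the brightest members, was at 0.97 and 1.17, then 0.31, −0.50 and 0.16, then 0.35, −0.13 and 0.24.

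The remaining symbols with large drops were dim. LOC102632594, Fcor (a corepressor of Foxo1), 9530047P18Rik, LOC102641028, Tma16 and A630052C17Rik were well above background on none of the serum arrays, so that their drops are only bounds of at least 2.15-, 1.60-, 1.42-, 2.34-, 1.28- and 1.34-fold. Gm10847 was above background on 1 serum array and Birc3 on 2. LOC102641028 was at −2.16, −2.32 and −2.32 with cordycepin, above both arrays without serum at −3.95 and −4.44.

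For members whose symbol also had other probes, those other probes moved less. The Birc3 member, designed to a cDNA of this inhibitor of apoptosis, was at −2.99 and −3.10 without serum and −4.64, −5.29 and −3.94 with it, a difference of −1.58, while the RefSeq mRNA probe of Birc3 moved by 0.20. The RefSeq mRNA probes of Mrpl20, Cenpp and Tma16 moved by 0.14, −0.20, and 0.03 and 0.07. For the 10 measured other probes of the same symbols, the median was −0.02 (range −0.99 to 0.20). None of these could be at or below −1 where its name fitted the rule, since it would then be a member.

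The lincRNA loci were looked at in the same way. A measured probe of these loci at or below −1 would be a member, so a smaller drop in the rest follows from the rule. Of 206 loci with a member, 166 had more than 1 measured probe, and in 38 of these every measured probe was a member. In the others, 271 measured probes of the same locus and strand that were no members had a median of −0.37, and 224 of them were below 0. The 207 measured probes of the opposite strand had a median of −0.11. The probes of a long locus need not report 1 transcript.

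The coding genes next to the members were looked at last. Of 206 RefSeq mRNA probes within 20 kb of a member that were tested, none was called lower with serum and 2 were called higher, for Klf9 and Mcl1. At an unadjusted p under 0.05, 15 were lower and 6 higher, and their median difference was −0.03. Near the other measured probes of the same classes, 1 of 3274 was called lower and 29 higher, and at an unadjusted p under 0.05 82 were lower and 146 higher. The difference between these sets was not tested. With cordycepin, 9 of the 206 were called higher than with serum and 10 lower, and near the other measured probes 106 and 97 of the 3274 were. For all 17874 RefSeq mRNA probes tested, 11 were called lower with serum and 140 higher.

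Noncoding RNAs with a name of their own were set beside the members from a separate list of 24 genes. There were probes for 18 of them, 17 were tested, and limma called none changed by serum (2 at an unadjusted p under 0.05), with a median of −0.03 and a range from −1.08 for Dnm3os to 0.69 for Rmrp. Each gene was read on 1 probe, although some, such as H19 with 7, had more. With cordycepin, Snhg3 and Dancr were called higher than with serum, by 1.08 and 2.01, and Malat1, an abundant nuclear RNA, was called lower, by 2.43 on the log2 scale.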

How the data were processed

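The data were the deposited scanner files of 8 one-colour arrays of NIH3T3 cells (60-base probes). Per the file headers, the authors extracted the intensity of each spot with Feature Extraction 10.7.3.1, whose processed signal has background already removed. The study's methods name limma for arrays, with neither a normalisation nor a filter. The log2 of the processed signal minus the 75th percentile over the 59305 non-control spots was used, without outlier spots and with the mean over repeated spots. Testing was limited to the 30819 probes well above background on all arrays of any 1 group. Groups were compared with limma 3.58.1 in R 4.3.3 over all 8 arrays, without covariates. P-values were two-sided with Benjamini-Hochberg adjustment, and calls needed an adjusted p under 0.05 and a log2 difference of at least 1. The calculation was tested on simulated data. All arrays lay on 1 slide, and their number, 2 or 3 a group, limits precision. Centring hides a shift common to most transcripts.

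The members, lists and comparisons were chosen with earlier results of these data known. Members named in the text were those with the largest drops (above background on all arrays, not above background with serum, or with a gene symbol), the brightest, those with the largest gap between the arrays without serum, those nearest the threshold, those with the largest called changes with cordycepin, and those of the places with the most members; other named members were chosen after their values were seen. Names follow the array design, and the RefSeq table, promoters and microRNAs belong to build GRCm38.p6. The alternatives comprised background correction, normalisation, filters, thresholds, blocks and leaving out arrays.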

Additional observations from a re-analysis of the deposited data

How the results depend on the processing

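The number of probes that passed the rule was 433 and changed to 44 with normexp background correction, 867 with centring on spike-in control spots, which moved the median serum difference of all probes to −0.35, and 139 where all 8 arrays had to be well above background. It ranged from 385 to 865 when 1 array was left out, the highest being without no_serum replicate 1 (865) and without no_serum replicate 2 (830). The 865 and 830 held 356 and 379 of the 433 members, and for both only the remaining array without serum had to be well above background. The lowest, 385, was without serum replicate 2 and held 333 of the 433. Taking the first array alone for probes in the first 3 eighths of the rows, chosen after seeing the data, gave 551.

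Members called lower with serum (190) became 43 with normexp, 109 with spike-in centring, 58 with no filter on dim probes, 101 with the filter on all 8 arrays, and 395 at an unadjusted p of at most 0.05. Leaving out 1 array gave 70 to 177, with 91 and 70 without the first and second no_serum arrays. Members called higher with cordycepin than with serum (204) became 102 with normexp and 76 with the filter on all 8 arrays, and ranged from 192 to 207 with 1 array left out. Those called lower (21) became 2 with normexp, 33 with quantile normalisation, 12 with spike-in centring, 10 with no filter and 5 with the filter on all 8 arrays, and ranged from 11 to 22, the lowest being without serum replicate 3 (11) and without cordycepin_serum replicate 1 (12). Against no serum, the members called higher (95) became 18 with spike-in centring and 40 with the filter on all 8 arrays, and ranged from 59 (without no_serum replicate 2) to 106. Those called lower (124) became 30 with normexp and 35 with the filter on all 8 arrays, and ranged from 92 to 127. The filter on all 8 arrays tests only 139 of the members. The causes of the other changes were not tested.

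With the replicate number as a block, the 5 counts were 189, 208, 22, 85 and 122. Same-numbered arrays did not deviate together (correlations of −0.17 to 0.22), so the numbers were not taken to pair the samples. Of 74 named members, the drop turned into a rise without no_serum replicate 2 for A_55_P2042808 (0.058, range −2.90 to 0.058 with 1 array left out), A_30_P01031884 (0.25, range −2.72 to 0.25) and A_55_P1981000 (0.45, range −2.70 to 0.45), and with normexp for A_30_P01027507 (0.032). Counting only the 302 members at or below −1 against each array without serum, chosen after seeing the data, gave 167, 155, 16, 73 and 100 calls. The remaining alternatives kept each count within 1.5 times. Most members lie close to the background of the scanner, which limits what their differences can show.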
